A study of Mus musculus with 4 samples.

Results

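Trim33 is a nuclear protein of the TRIM family that reads the histone H3 tail through its paired plant homeodomain and bromodomain, carries a RING finger of the ubiquitin ligase type, and is known as a partner and regulator of Smad proteins in Nodal and TGF-beta signalling. Early mouse differentiation depends on these pathways, and embryoid bodies, aggregates that form from embryonic stem cells, are a common model of it. The chromatin immunoprecipitation sequencing list for Trim33 from mouse embryoid bodies at day 6 held 4426 peaks, of which 4401 lay on autosomes 1 to 19 and are described here. Together the 3 peak lists of the series (Trim33, CTCF and H3K27ac) held 86919 peaks, and the CTCF list, of insulator binding sites, and the H3K27ac list, of acetylated enhancers and promoters, serve below as annotation only.

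Each library was a single sample: an antibody to Trim33 (Bethyl), to CTCF or to H3K27ac (both Active Motif) or, as the background the peaks were called against, input chromatin with no antibody. All 4 came from 1 line of embryonic stem cells, Trim33FF: UbcCreERT2, strain Outbred - B6:129Sv, at passages 8 to 12, so the cells carried the conditional Trim33 allele and the inducible Cre, and chromatin without Trim33 was not analysed here. The stem cells were kept in 2i and LIF with PD0325901 at 1.0 µM, a MEK inhibitor, and CHIR99021 at 3 µM, a GSK3 inhibitor, and grew as embryoid bodies in 20% serum. Chromatin of 20 dishes of 10 cm was fixed with 1% formaldehyde for 15 min, and 30 µg went into a precipitation.

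Per the authors' deposited table, the Trim33 library had 29719237 reads and 13643929 tags after filters, and 0.72% of its tags lay in peaks. With 1 library per antibody there was no replicate check and no test, so values stand as medians with quartiles and shares stand with 95% Wilson intervals, which cover counting error only. Embryoid bodies mix cell types, and binding in more cells and stronger binding per cell cannot be told apart. The fold, −log10 p and −log10 q of each peak are the authors' own values from their peak caller.

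Promoters with a Trim33 summit can be read directly as sequence. Shown are the 250 bases before the start (RefSeq, GRCm38.p6, in the sense of the gene) for the 4 genes with the highest fold among those with a Trim33 summit inside the 300 bp promoter window, and then for the next 3 by fold whose promoter holds the palindrome CTCGCGAG. Capitals mark matches to this palindrome, to the GC box GGGCGG and to the ETS site CCGGAAG, on either strand, of which the Dhx8 and Gtf2b stretches had none.
Dhx8 (chr11:101732706-101732955, plus strand): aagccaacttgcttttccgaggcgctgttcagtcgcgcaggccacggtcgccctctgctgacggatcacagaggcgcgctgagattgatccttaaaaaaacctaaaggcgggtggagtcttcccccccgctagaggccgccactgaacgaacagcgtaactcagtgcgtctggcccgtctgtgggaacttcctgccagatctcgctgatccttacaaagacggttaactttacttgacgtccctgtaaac
Tyw5 (chr1:57406675-57406924, minus strand): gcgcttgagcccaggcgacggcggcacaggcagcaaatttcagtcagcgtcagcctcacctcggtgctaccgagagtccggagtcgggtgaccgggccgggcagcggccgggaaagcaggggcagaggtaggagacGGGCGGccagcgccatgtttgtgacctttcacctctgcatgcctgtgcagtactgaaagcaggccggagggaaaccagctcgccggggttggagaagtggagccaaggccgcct
Akap11 (chr14:78536861-78537110, minus strand): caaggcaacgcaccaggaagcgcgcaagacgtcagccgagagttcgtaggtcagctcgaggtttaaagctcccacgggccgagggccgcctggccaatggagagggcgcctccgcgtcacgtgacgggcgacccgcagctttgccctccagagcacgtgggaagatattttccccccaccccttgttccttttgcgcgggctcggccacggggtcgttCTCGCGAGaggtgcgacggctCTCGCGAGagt
Gtf2b (chr3:142764997-142765246, plus strand): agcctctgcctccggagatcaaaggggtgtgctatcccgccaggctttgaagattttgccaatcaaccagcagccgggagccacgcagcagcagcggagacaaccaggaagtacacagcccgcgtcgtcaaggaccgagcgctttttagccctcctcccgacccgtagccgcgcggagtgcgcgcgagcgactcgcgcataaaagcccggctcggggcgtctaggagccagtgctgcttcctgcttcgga
1600012H06Rik (chr17:14942934-14943183, plus strand): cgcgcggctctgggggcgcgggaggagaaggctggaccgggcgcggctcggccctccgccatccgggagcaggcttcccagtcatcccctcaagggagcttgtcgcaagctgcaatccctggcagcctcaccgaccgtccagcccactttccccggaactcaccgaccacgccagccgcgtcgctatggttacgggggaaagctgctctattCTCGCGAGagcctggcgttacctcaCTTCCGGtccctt
Wdr27 (chr17:14943125-14943374, minus strand): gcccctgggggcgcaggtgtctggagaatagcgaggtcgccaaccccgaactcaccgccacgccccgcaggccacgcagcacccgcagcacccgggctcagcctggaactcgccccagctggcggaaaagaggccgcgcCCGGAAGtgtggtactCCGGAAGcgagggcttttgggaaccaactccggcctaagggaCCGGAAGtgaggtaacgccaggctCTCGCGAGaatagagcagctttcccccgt
Mdh2 (chr5:135778399-135778648, plus strand): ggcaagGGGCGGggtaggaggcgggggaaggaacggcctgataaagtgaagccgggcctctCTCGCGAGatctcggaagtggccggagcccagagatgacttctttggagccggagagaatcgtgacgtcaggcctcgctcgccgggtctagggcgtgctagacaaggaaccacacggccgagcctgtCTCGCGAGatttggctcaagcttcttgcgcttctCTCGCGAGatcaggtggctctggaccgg
Dhx8 encodes a splicing helicase, Tyw5 a tRNA-modifying enzyme, Akap11 a protein kinase A anchor and Gtf2b the general transcription factor TFIIB. Mdh2 encodes mitochondrial malate dehydrogenase, and its promoter held 3 copies of the palindrome. Akap11 held 2 copies. The 1600012H06Rik and Wdr27 starts face away from each other, and their windows share 1 palindrome and 1 Trim33 peak (fold 9.17), which overlapped neither a CTCF nor an H3K27ac peak. The summit of that peak lay 109 bp before the start of 1600012H06Rik. It was 49 bp past the start of Wdr27, and so outside the printed Wdr27 stretch. Trim33 summits lay 192 bp before the start of Dhx8 (fold 13.8), 23 bp before that of Tyw5 (11.7), 140 bp before that of Akap11 (10.9), 119 bp before that of Gtf2b (10.0) and 53 bp before that of Mdh2 (8.84). The Dhx8 peak overlapped a CTCF peak with a fold of 57.6 and no H3K27ac peak, whereas those at Tyw5, Akap11, Gtf2b and Mdh2 overlapped an H3K27ac peak and no CTCF peak.

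The peaks were narrow and shallow. Median width was 265 bp (quartiles 221 to 335), the narrowest equalled the 204 bp fragment length of the authors' deposited table, and 749 peaks (17.0%) were no more than 6 bp wider than that. Only 5 peaks exceeded 1000 bp. Median fold was 5.67 (quartiles 4.94 to 6.70, range 2.50 to 20.4). From the fold and p of each peak, the whole number of fragments under the summit and the number expected from input could be recovered for all 4401 peaks, with −log10 p matched to within 1e-04. The median peak rested on 16 Trim33 fragments at the summit (quartiles 14 to 19, range 9 to 82) against a median of 2.00 expected from input, and 33.5% of peaks (95% interval 32.1 to 34.9) rested on fewer than 15. For 1194 peaks (27.1%) the expected number was the genome-wide floor of 1.49, where 1 more fragment raises the fold by 0.402. As a result many peaks shared a fold exactly: the list held 643 distinct values, 8 of them covered 25.3% of peaks, and a fold of 6.03, which is 14 fragments over the floor, occurred 182 times. The order of peaks with such folds cannot be told apart.

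Strength followed both terms of the ratio. The 39 peaks with a fold of 12 or more had a median of 38 fragments over 1.63 expected, a median −log10 q of 30.3 and were 475 bp wide in the median. The 378 peaks from 8 to 12 had 23 fragments over 1.63 and 348.5 bp, the 1506 peaks from 6 to 8 had 17 over 1.63 and 271 bp, the 1345 peaks from 5 to 6 had 15 over 2.00 and 250 bp, and the 923 peaks from 4 to 5 had 13 over 2.04 and 246 bp. The 210 weakest, under 4, had as many as 15 fragments, but over 4 expected, with a median −log10 q of 2.91 and a width of 252.5 bp. Since the fold is made of these 2 numbers, their order over the bins is partly fixed by the binning. Peaks at gene starts were spread unevenly over this scale. A summit lay within 500 bp of an annotated start in 33.8% of the weakest bin (27.7 to 40.5), 23.2% of peaks from 4 to 5, 19.4% from 5 to 6, 18.95% from 6 to 8, 16.7% from 8 to 12, and 1 of the 39 strongest peaks (2.56%, 0.454 to 13.2), which was Dhx8. The promoter table lists starts for 16457 of 20665 protein-coding genes, and a peak at an unlisted start, as may be that at Ccn2, counts as away from one. CTCF overlap was 39.3% from 4 to 5 (36.2 to 42.5) and 50.5% from 8 to 12 (45.5 to 55.5), the lowest and highest of the 6 bins. H3K27ac overlap was 50% in the weakest bin (43.3 to 56.7) and 39.4% from 6 to 8 (36.9 to 41.9), the highest and lowest.

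**Figure D1:**
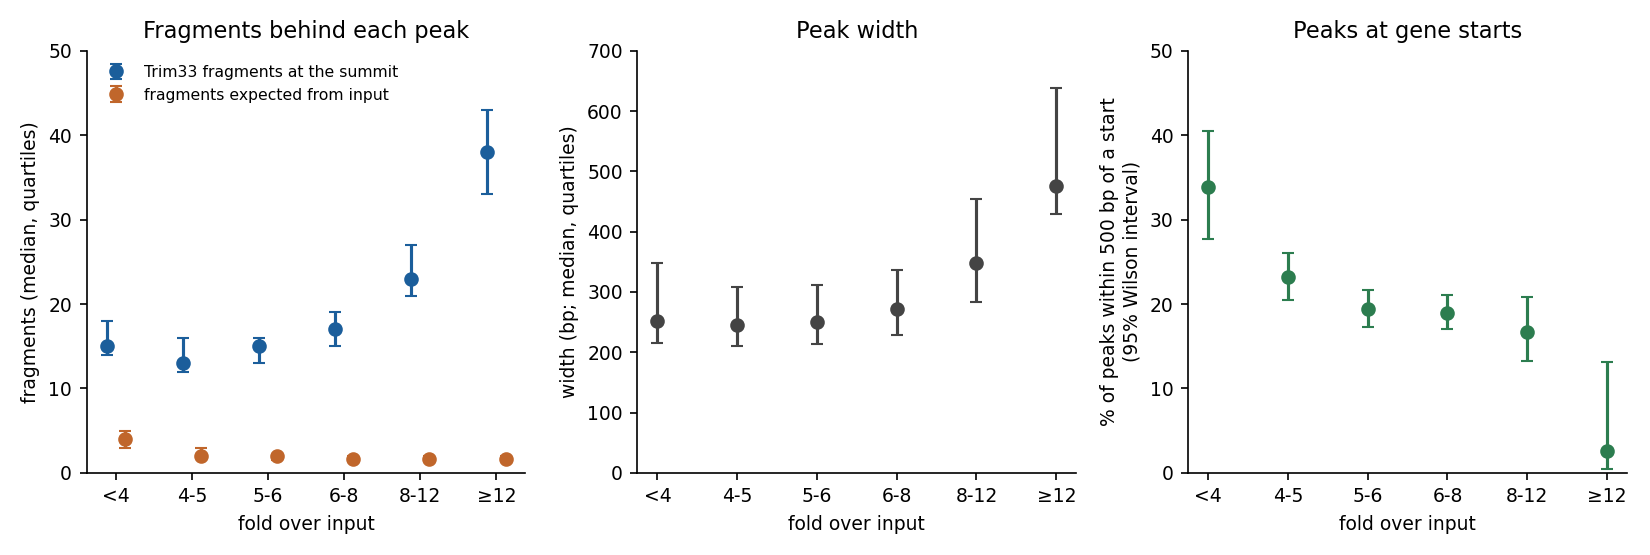
Trim33 peaks on the autosomes in 6 bins of fold over input (x axes): fragments at the summit and fragments expected from input (left, median with quartiles), width in bp (middle, median with quartiles) and the percentage of peaks within 500 bp of an annotated start (right, 95% Wilson interval). The strongest bin of 39 peaks had a median of 38 fragments and a width of 475 bp, and the share at starts was 33.8% in the weakest bin and 2.56% in the strongest.

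The highest peaks lay near genes of many kinds, mostly away from listed starts. The top fold, 20.4 (54 fragments over 1.69), fell 71.8 kb from 1600014C23Rik inside the noncoding gene Gm46607. Next came a CTCF-bound peak 8.79 kb from Glrx3, an iron-sulfur glutaredoxin gene, with 20.1, and a peak inside Gse1 with 20.0 (59 fragments over 2.00), which overlapped neither annotation list. Ccn2, a secreted matricellular protein and a classic YAP target, had its peak inside the gene, 53 bp from one of its ends, with 17.8 under H3K27ac. Etfbkmt, a mitochondrial lysine methyltransferase gene, had 17.7 at 10.2 kb. Further down the first 25 stood Ust, a sulfotransferase gene (16.9), Tmem260 (16.1, with a neighbour 501 bp away at 14.1), Gnat1, rod transducin (16.0), Eif4b, a translation initiation factor (15.7), and Igsf3 (15.3). Regulators among them were Tet3, a DNA demethylation enzyme (14.4), Foxc2, a forkhead factor of mesoderm (14.1), and Mycn (13.7, 0.763 kb from the gene). The largest number of fragments, 82, lay 7.96 kb from Cbfa2t2, a corepressor gene that early germ cells need, but with 7 expected the fold was 10.4. The highest expected number was 25, beside P4ha2, where 69 fragments gave a fold of 2.69.

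The strongest peak of each autosome added several developmental genes. On chromosome 1 it lay inside the overlapping Cfc1 and Prss40, with a fold of 12.9 (41 fragments over 2.24). Cfc1 encodes an EGF-CFC co-receptor of Nodal. On chromosome 2 it lay inside Hoxd3 (12.9, under a CTCF peak of 52.7) and on chromosome 16 inside Runx1, the blood-forming transcription factor (12.2, under a CTCF peak of 34.6). On chromosome 19 it lay 133 bp past the start of Cep55, a midbody protein gene of cell division (11.7, under H3K27ac). The weakest of these 19 maxima was that of chromosome 5, near Cryba4, with 11.1. The peak near Slc38a3 was among both the 25 highest (fold 16.9) and the 10 widest (943 bp). Also among the 10 widest peaks were those nearest Gadd45b, a stress-response gene (1253 bp, fold 9.87), Cdc42ep4 (1078 bp, 6.70) and Arl4c (1022 bp, 5.40). Atf7ip, whose product partners the SETDB1 methyltransferase, and Sall4, a pluripotency factor gene, had peaks of 964 bp and 958 bp. These 5 peaks all overlapped H3K27ac, and those at Gadd45b, Cdc42ep4 and Atf7ip overlapped CTCF too.

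At starts, Trim33 summits clustered on the start itself. The RefSeq promoter table covered chromosomes with 4273 of the peaks, and 20.3% of these (19.2 to 21.6) had a summit within 500 bp of a protein-coding start. Within 1 kb there were 1095 summits, 509 before the start and 586 at or after it. Their median position was 25 bp past the start (quartiles −199 to 246.5 bp), and 510 lay within 200 bp. Among 20085 promoter windows, 1033 (938 genes) had such a summit, or 5.14%. These windows held a median of 22 CpG dinucleotides in 300 bp, against 14 in all windows, and a median GC content of 61.7%, against 57.0%. The share with Trim33 was 0.271% of starts with under 5 CpG (0.165 to 0.447), 6.48% at 10 to 14 CpG, 10.1% at 20 to 24 CpG (8.91 to 11.4) and 7.36% at 30 or more (6.51 to 8.31). Among starts with an H3K27ac peak within 500 bp the share was also lowest under 5 CpG, with 4.26%, and highest at 20 to 24, with 13.1% (11.6 to 14.9). There, however, it was higher at 10 to 14 CpG, with 10.4% (8.60 to 12.5), than at 30 or more, with 8.27% (7.23 to 9.45). Of the Trim33 windows 83.8% had H3K27ac, against 41.7% of all windows.

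**Figure D2:**
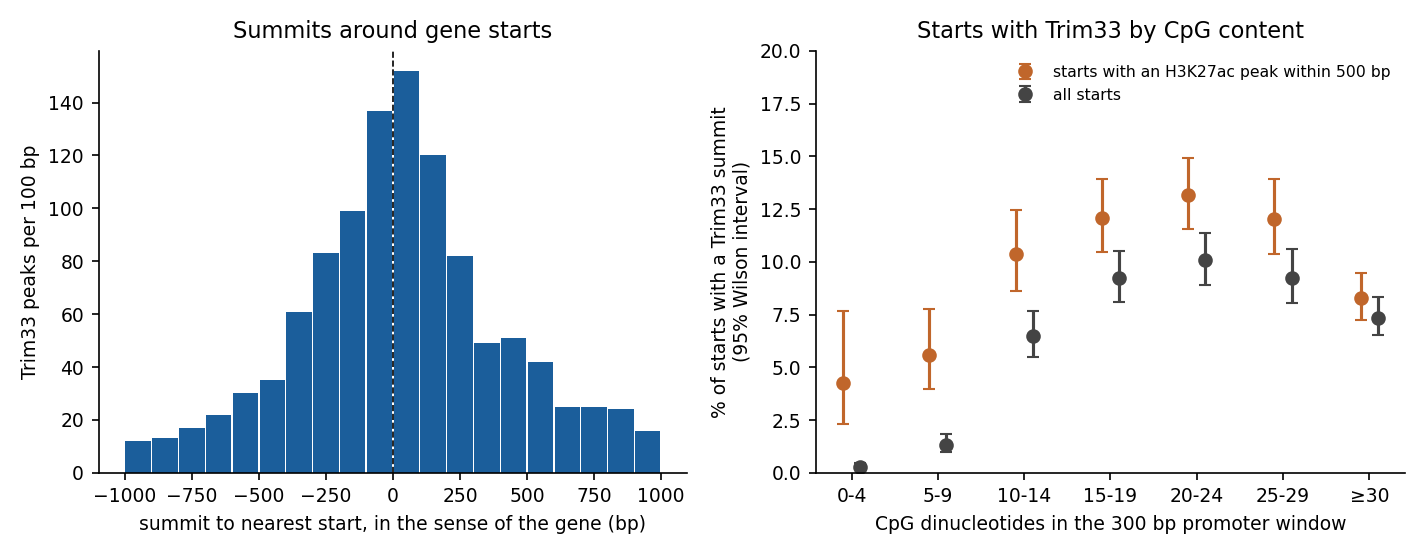
Left, Trim33 summits per 100 bp around the nearest protein-coding start, with the sense of the gene to the right; the 1095 summits within 1 kb peak at the start. Right, percentage of starts with a Trim33 summit within 500 bp by CpG number in the 300 bp window (95% Wilson interval), for starts with H3K27ac and for all starts, highest at 20 to 24 CpG with 13.1% and 10.1%.

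Starts that face another gene's start within 1 kb (divergent promoters) carried Trim33 in 180 of 1648 windows, or 10.9% (9.51 to 12.5), against 853 of 18437 other windows, or 4.63% (4.33 to 4.94). Among windows with 15 or more CpG the shares were 11.5% (9.95 to 13.3) and 8.35% (7.77 to 8.96). A summit between a pair of starts counts for both windows. Of 13 motifs searched on both strands, the palindrome CTCGCGAG was in 3.78% of Trim33 windows (2.77 to 5.12), against 1.21% of all windows, and among windows with 15 or more CpG in 4.47% (3.27 to 6.07), against 2.38%. The ETS site CCGGAAG was in 21.6%, against 11.9%, the cAMP response element TGACGTCA in 4.45%, against 2.30%, and the YY1 site AAGATGGC in 5.13%, against 3.06%. Restricted to 15 or more CpG the gaps of these 3 narrowed to 23.9% against 19.8%, 4.82% against 3.69% and 5.29% against 4.64%. Several motifs changed sides with that restriction. The GC box GGGCGG was in 64.0% of Trim33 windows, against 47.0% of all windows, but among CpG-rich windows in 69.4% (66.3 to 72.4), against 77.6%. The Smad motif CAGAC, short enough to occur often by itself, was in 49.9%, against 48.4%, and among CpG-rich windows in 47.9% (44.6 to 51.3), against 44.7%. The Smad palindrome GTCTAGAC was in 4 Trim33 windows (0.387%, 0.151 to 0.991), against 0.239%, and among CpG-rich windows in 3 (0.353%), against 0.259%. TATAAA was in 7.65%, against 12.7%, but among CpG-rich windows in 6.58% (5.10 to 8.45), against 4.53%. TGACTCA, the AP-1 site, was in 3.10%, against 4.70%, but among CpG-rich windows in 3.06% (2.09 to 4.44), against 2.48%. CCAAT was in 33.2%, against 38.1%, and among CpG-rich windows in 33.3%, against 35.6%. The E-box CACGTG was in 10.7%, against 7.89%, and among CpG-rich windows in 11.5%, against 11.4%. The CTCF core string AGGGGGC was in 16.1%, against 13.1%, but among CpG-rich windows in 15.9% (13.6 to 18.5), against 19.9%, and AGGTGGC in 6.78%, against 6.27%, but among CpG-rich windows in 7.05% (5.52 to 8.97), against 7.35%. A match describes letters in a window, not a binding site.

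Along the chromosomes the peaks were spread unevenly. The median distance between neighbouring summits was 185.7 kb (quartiles 52.5 to 566.7 kb), while the mean was 538.7 kb, 2.90 times as much. The gaps had a main mode at 178 to 316 kb, with 605 gaps, and a small second one at 0.562 to 1.00 kb, with 94 gaps, separated by a dip to 60 gaps at 1.78 to 3.16 kb. Another summit stood within 1 kb of 333 peaks (7.57%), within 10 kb of 911 (20.7%, 19.5 to 21.9) and within 100 kb of 2462 (55.9%), and 144 peaks (3.27%) had none within 1 Mb. Of peaks with a neighbour within 10 kb 13.9% were at starts (11.8 to 16.4), against 22.0% of the others (20.7 to 23.4). H3K27ac overlapped 55.8% of peaks with such a neighbour (52.5 to 59.0), against 39.3% of the others (37.6 to 40.9). Close peaks can lie at the same start or over the same H3K27ac or CTCF peak, so the intervals for them are too narrow. CTCF overlap was 42.4% (39.2 to 45.6) against 45.2% (43.6 to 46.9), and median fold was 5.63 against 5.67.

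**Figure D3:**
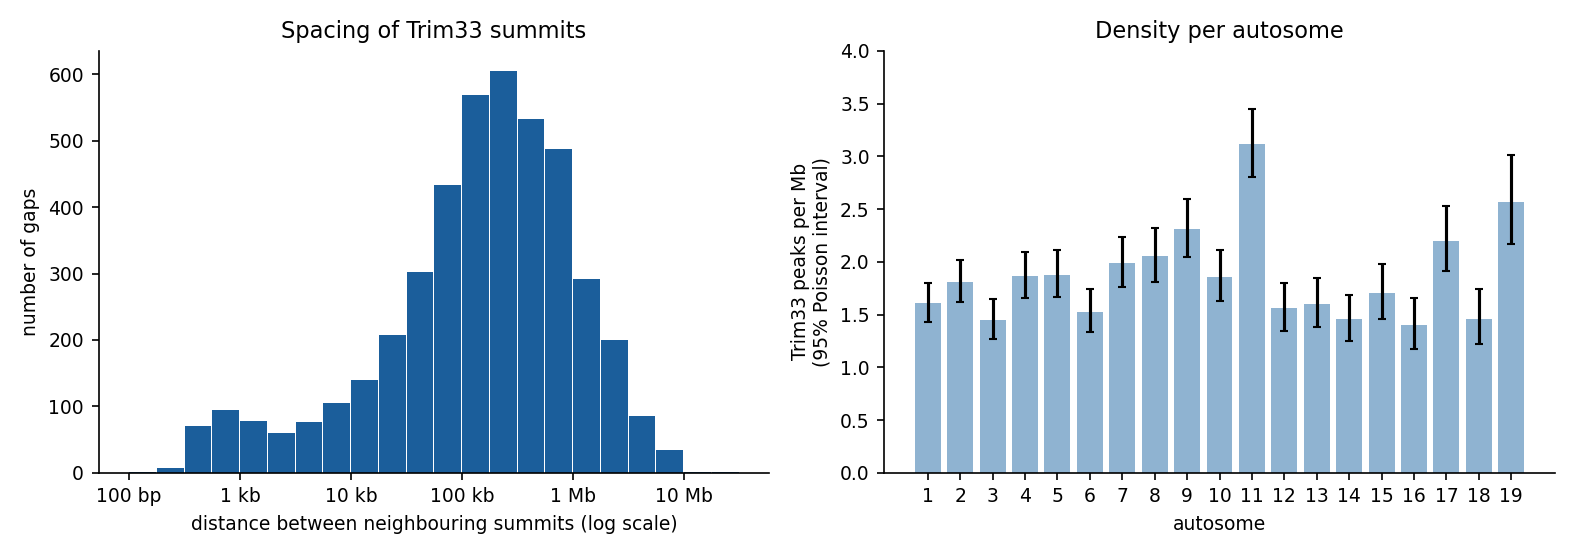
Left, distances between neighbouring Trim33 summits on a log axis (4382 gaps), with a main mode of 605 gaps at 178 to 316 kb and a smaller one of 94 gaps just under 1 kb. Right, Trim33 peaks per Mb of each autosome with exact 95% Poisson intervals, highest on chromosome 11 with 3.12 and lowest on chromosome 16 with 1.398.

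Runs of 3 or more summits with neighbours within 20 kb numbered 88 and held 303 peaks (6.88%). Of these runs 69 had 3 peaks, 8 had 4, 6 had 5, 3 had 6 and 2 had 8, and the median span was 13.4 kb. H3K27ac overlapped 63.0% of peaks in runs (57.5 to 68.3), against 41.2% of the others (39.7 to 42.7), while CTCF overlapped 44.6% of both. Peaks of a run can share an H3K27ac or CTCF peak, so the interval for runs is too narrow. Median fold was 5.63 in runs, against 5.67 outside. Of the 88 runs, 22 had a peak at an annotated start.

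Of the 2 runs with 8 summits, the tighter spanned 6.56 kb at chr6:136464095-136470932, with all 8 inside Gm36897, a long noncoding RNA gene of 7734 bp, 44.3 kb from the nearest protein-coding gene. The folds there were, in order, 4.23, 5.67, 6.43, 5.22, 12.3, 5, 7.22 and 5.32, so a peak of 36 fragments stood among smaller ones of 11 to 18 fragments. Of the 8 peaks 6 overlapped H3K27ac, with folds up to 20.96, and 2 overlapped CTCF. A second run of 8 lay in Gse1, which encodes a protein found with the CoREST and histone deacetylase complex, over 34.7 kb with folds of 3.50 to 6.86. Its first 5 peaks lacked H3K27ac and its last 3 had it. Beside Skida1, 6 summits spanned 15.1 kb across the noncoding genes Gm33085, A930004D18Rik and Gm17762, with folds of 4.67 to 8.00 and all 6 under H3K27ac. Other runs of 6 lay over Slc7a7, Mrpl52 and Mmp14, a membrane metalloproteinase gene, with 3 summits at starts, and around Car4, a carbonic anhydrase gene.

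Runs of 5 numbered 6. Myc, the growth-promoting transcription factor, had 5 summits in 10.0 kb with folds of 8.44, 7.23, 7.22, 5.63 and 4.82, the highest outside the gene under CTCF and the other 4 under H3K27ac. Dusp4, a phosphatase gene of MAP kinase feedback, had 5 in 9.69 kb, with folds of 4.56 to 6.77. Hes1, the Notch-responsive repressor, had 5 in 15.4 kb, all under H3K27ac, with 13 to 15 fragments each. Around Fzd2, a Wnt receptor gene, 5 summits spread over 51.4 kb, around Ptma, the prothymosin alpha gene, 5 over 40.9 kb, and 5 lay near Gpr142 with a fold up to 12.5. Runs of 4 covered Tbx3 in 1.95 kb, Cdh1, the E-cadherin gene, in 14.5 kb and Emx2 in 15.0 kb. The Emx2 run had no H3K27ac at any of its 4 peaks.

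**Figure D4:**
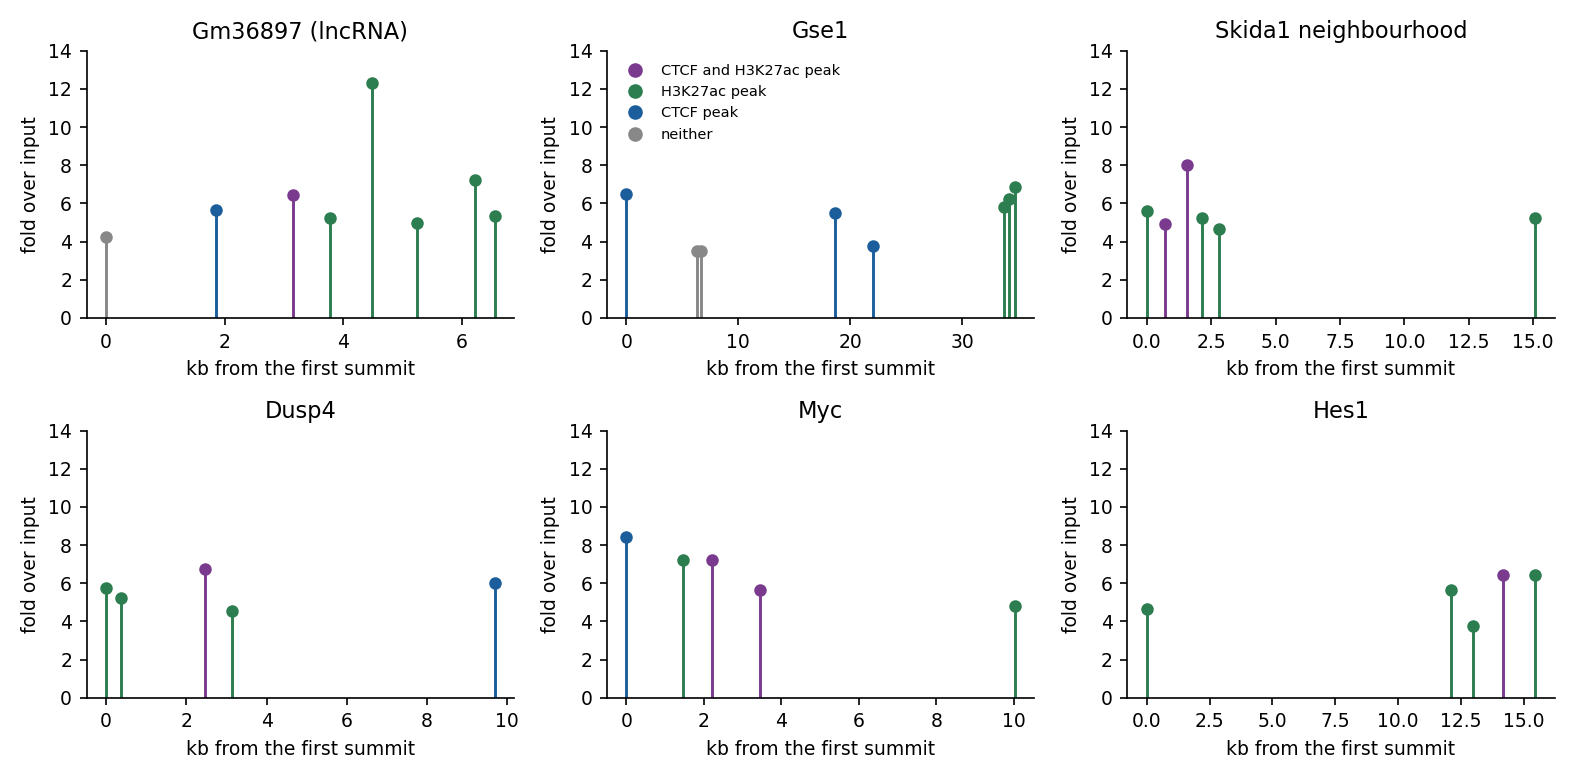
Trim33 peaks of 6 runs, each at its distance in kb from the run's first summit (x axis), with fold over input (y axis); colour shows overlap with CTCF and H3K27ac peaks. The Gm36897 run holds 8 peaks in 6.56 kb with folds of 4.23 to 12.3, and the 5 Hes1 peaks all overlap H3K27ac.

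A run of 4 chosen for mention after its values were seen lay at chr7:3201206-3218092, 0.795 kb from Nlrp12, with its last summit 778 bp before the hairpin of Mir290a, the first of the Mir290 to Mir295 cluster of miRNAs characteristic of pluripotent cells. The folds were 4.67, 12.5, 4.02 and 8.04, on 13, 32, 9 and 19 fragments, and all 4 peaks overlapped H3K27ac, with folds of 13.4 to 22.0, and none CTCF. The mature sequences (RefSeq, GRCm38.p6) show what the cluster encodes, with the seed, bases 2 to 8, in capitals.
mmu-miR-294-3p: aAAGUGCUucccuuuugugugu
mmu-miR-295-3p: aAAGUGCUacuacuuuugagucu
mmu-miR-290a-3p: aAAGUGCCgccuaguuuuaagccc
mmu-miR-291b-3p: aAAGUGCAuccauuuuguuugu
mmu-miR-293-3p: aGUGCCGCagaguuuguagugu
The seed AAGUGCU is shared by miR-294-3p and miR-295-3p, those of miR-290a-3p and miR-291b-3p begin with the same AAGUGC, and that of miR-293-3p does not.

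Density per autosome ranged over 2.23 times. Chromosome 11 had 370 peaks, or 3.12 per Mb (2.81 to 3.45), and chromosome 19 had 2.57 (2.17 to 3.01), whereas chromosome 16 had 132 peaks, or 1.398 per Mb (1.17 to 1.66), and chromosome 3 had 1.45 (1.27 to 1.65). All autosomes together had 1.84. Densities followed the number of CpG islands per Mb in the authors' deposited table, with Pearson's r = 0.930 over 19 autosomes, and protein-coding genes per Mb with r = 0.815, as a description of chromosomes that share 1 library. Per 100 CpG islands the range was 23.7 to 35.9, or 1.51 times. Per 100 protein-coding genes it was 13.9, on chromosome 7, to 26.8, on chromosome 12, around 21.3 for all.

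The widest stretch without a peak measured 20.4 Mb on chromosome 16, between a peak nearest Col8a1 (fold 6.43) and a peak nearest Cxadr, the coxsackievirus and adenovirus receptor gene (5.63). It held 62 protein-coding genes, 25 of them olfactory or vomeronasal receptors, and also 110 CTCF peaks and 34 H3K27ac peaks. The next, 10.7 Mb on chromosome 1 between B3gat2 and Ccdc115, and 9.95 Mb on chromosome 12 between Fbxo33 and Lrr1, held 35 and 10 H3K27ac peaks.

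Of 20665 protein-coding genes on the autosomes, 2940, or 14.2%, had a summit inside or within 5 kb, and 474, or 2.29%, had 2 or more. These 474 genes accounted for 963 peaks. They were long, with a median of 51.5 kb, against 17.5 kb for all genes, and 88.8% of them had an H3K27ac summit in the same window, against 52.0%. Of genes of 50 kb and over 5.04% had 2 or more, against 1.21% of genes under 10 kb. Neighbouring genes whose windows overlap share peaks.

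Gse1 stood far above the rest with 14 peaks over 353 kb, and no other protein-coding gene had more than 5. Its folds ran from 3.50 to 20.0. Of the 14 peaks 6 overlapped CTCF, 4 H3K27ac and 5 neither, and none lay at an annotated start. The Gse1 window also held 49 CTCF and 22 H3K27ac summits, against medians of 4 and 3 for genes with 2 or more Trim33 peaks. Input predicted at least 2 fragments at each of the 14 peaks. Gm37013, with 58 CTCF summits, and Etl4, with 53 H3K27ac summits, had 3 Trim33 peaks each. Whether the Gse1 count follows from the density of these lists or from input was not tested. The genes with 5 were Myc, Bcl2l1, an inhibitor of apoptosis (folds 4.97 to 8.88, all 5 under H3K27ac), Slc2a3, the glucose transporter GLUT3 (3.67 to 9.64), Dusp4, the imprinted Usp29 (3.40 to 6.83, 4 under CTCF) and Il17rd, an inhibitor of FGF signalling (4.67 to 5.2). Of the 17 genes with 4, Emx2, Lmx1b, Tbx3, Tcf7l1, Hes1 and Pknox2 encode transcription factors of development. Setd1b, a histone H3K4 methyltransferase gene, and Bahcc1 are chromatin genes, and Cdh1 and Iqgap1 are adhesion and scaffold genes. The others were Tmem260, St3gal3, Mbp, Tyms, Cnot10, Ahdc1 and Mast4. Lmx1b, a LIM homeodomain factor gene, had 4 peaks of nearly the same fold, 4.70 to 4.82, and no H3K27ac at any of them. Their fragment numbers differed, with up to 18 at a summit and 1.49 to 3 expected. Tmem260 had 2 peaks with folds of 6.03 and 6.43 around 2 of 14.1 and 16.1. By biotype, wherever the gene lay, 708 of 12408 long noncoding RNA genes (5.71%, 5.31 to 6.13) had a summit inside or within 1 kb. So had 37 of 391 tRNA genes (9.46%, 6.94 to 12.8), against 2405 protein-coding genes (11.6%). The share was 2.46% for miRNA genes, 0.293% for pseudogenes and 10% for 90 miscellaneous RNA genes. Genes that lie close together can share a summit, so these intervals can be too narrow.

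By gene family, shares with a Trim33 summit inside or within 5 kb are read against the 14.2% of all protein-coding genes. Neither share was adjusted for gene length, and a longer gene has a wider window. Of genes of 50 kb and over 21.7% had a summit, against 9.44% of genes under 10 kb. Median length in the 16 families named below as highest ran from 3.21 kb (ribosomal proteins) to 94.4 kb (cadherins and protocadherins), against 17.5 kb for all genes. Families were drawn by symbol prefix, which takes in a few unrelated symbols, and members in 1 cluster can share a peak, so that the intervals are too narrow there. The 31 of 90 cadherin and protocadherin genes with Trim33 (34.4%) had 18 distinct peaks between them. Within 1 kb of a gene end their share was 5.56%, against 7.01% of all genes. The share was more than 2 times the background in 16 of 45 families. Among protein-coding genes with an H3K27ac summit in the window the background was 22.0%, and 9 families were above 2 times that. These 9 included bHLH factors (10 of 20, 50%), which were not among the 16. Some of the 16 did not pass this mark, with these shares among genes with H3K27ac. They were SRF and YAP targets (42.1%), forkhead (42.1%), KLF and Sp (40.9%) and ribosomal protein genes (37.3%). The rest were Smad and TGF-beta feedback (36.8%), AP-1 and early response (36.7%), Polycomb (36.4%) and histone methyltransferase and demethylase genes (33.3%).

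Among transcription factor families, Trim33 was at 10 of 18 Sox genes (55.6%, 33.7 to 75.4), with the highest fold at Sox1, of neural progenitors (9.33), then Sox12 (8.84), Sox13 (6.36) and Sox4 (6.08). Sox2, the pluripotency and neural factor gene, had 2 peaks, the higher of 5.63. It was at 10 of 25 KLF and Sp genes (40%), with Sp8 (8.00) and the Wnt-responsive Sp5 (7.57), at 7 of 19 T-box and GATA genes (36.8%), with 3 peaks at Eomes, of mesendoderm, up to 8.00 (but at 1 of 19, or 5.26%, within 1 kb of a gene end, against 7.01% of all genes), and at 14 of 41 forkhead genes (34.1%), with Foxc2 (14.1), Foxk1 (10.6) and the endoderm factor Foxa2 (3 peaks, up to 8.67). Other homeodomain genes had it at 25 of 72 (34.7%), with Dlx3 (9.19) and Meis2 (8.04). bHLH factor genes had it at 13 of 48 (27.1%) and nuclear receptor genes at 10 of 46 (21.7%). Of 39 Hox genes 5 had it (12.8%, 5.60 to 26.7), near the share of all genes and from 4 distinct peaks, and Hoxd3 was the highest. None of the 39 Hox genes had an H3K27ac summit in its window.

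Signalling families spanned a similar range. Ligands, receptors and targets of Wnt had Trim33 at 20 of 52 (38.5%, 26.5 to 52.0), with the receptor Fzd10 (7.60), the ligands Wnt9a (7.5) and Wnt5a (6.95), and the nuclear effectors Tcf7l2 and Lef1 (6.83 each). Ephrins and their receptors, which sort cells at boundaries, had it at 8 of 21 (38.1%), with Ephb3 (10.9) at its start. Semaphorins and plexins had it at 10 of 27 (37.0%), and Notch genes at 7 of 20 (35.0%), with the modifier Lfng (7.69) and the receptor Notch2 (6.43). Smad genes and TGF-beta feedback regulators had it at 8 of 22 (36.4%, 19.7 to 57.0), with Ltbp4, a latent TGF-beta binding protein gene (9.33), the inhibitory Smad7 (6.83), Pmepa1 (6.38) and the pseudoreceptor Bambi (6.33). TGF-beta and BMP ligands and receptors had it at 11 of 52 (21.2%, 12.2 to 34.0; within 1 kb of an end 5.77%, against 7.01% of all genes), with the ligands Tgfb3 (8.22) and Bmp7 (7.37), the receptor Bmpr2 (6.67) and the antagonist Nog (6.03). FGF ligands and receptors had it at 5 of 31 (16.1%, 7.09 to 32.6), and within 1 kb of an end at 1 (3.23%). Early response genes of the AP-1 and Dusp kind had it at 16 of 41 (39.0%), and SRF and YAP target genes at 8 of 23 (34.8%), led by Ccn2 and by Amotl2 (9.93).

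**Figure D5:**
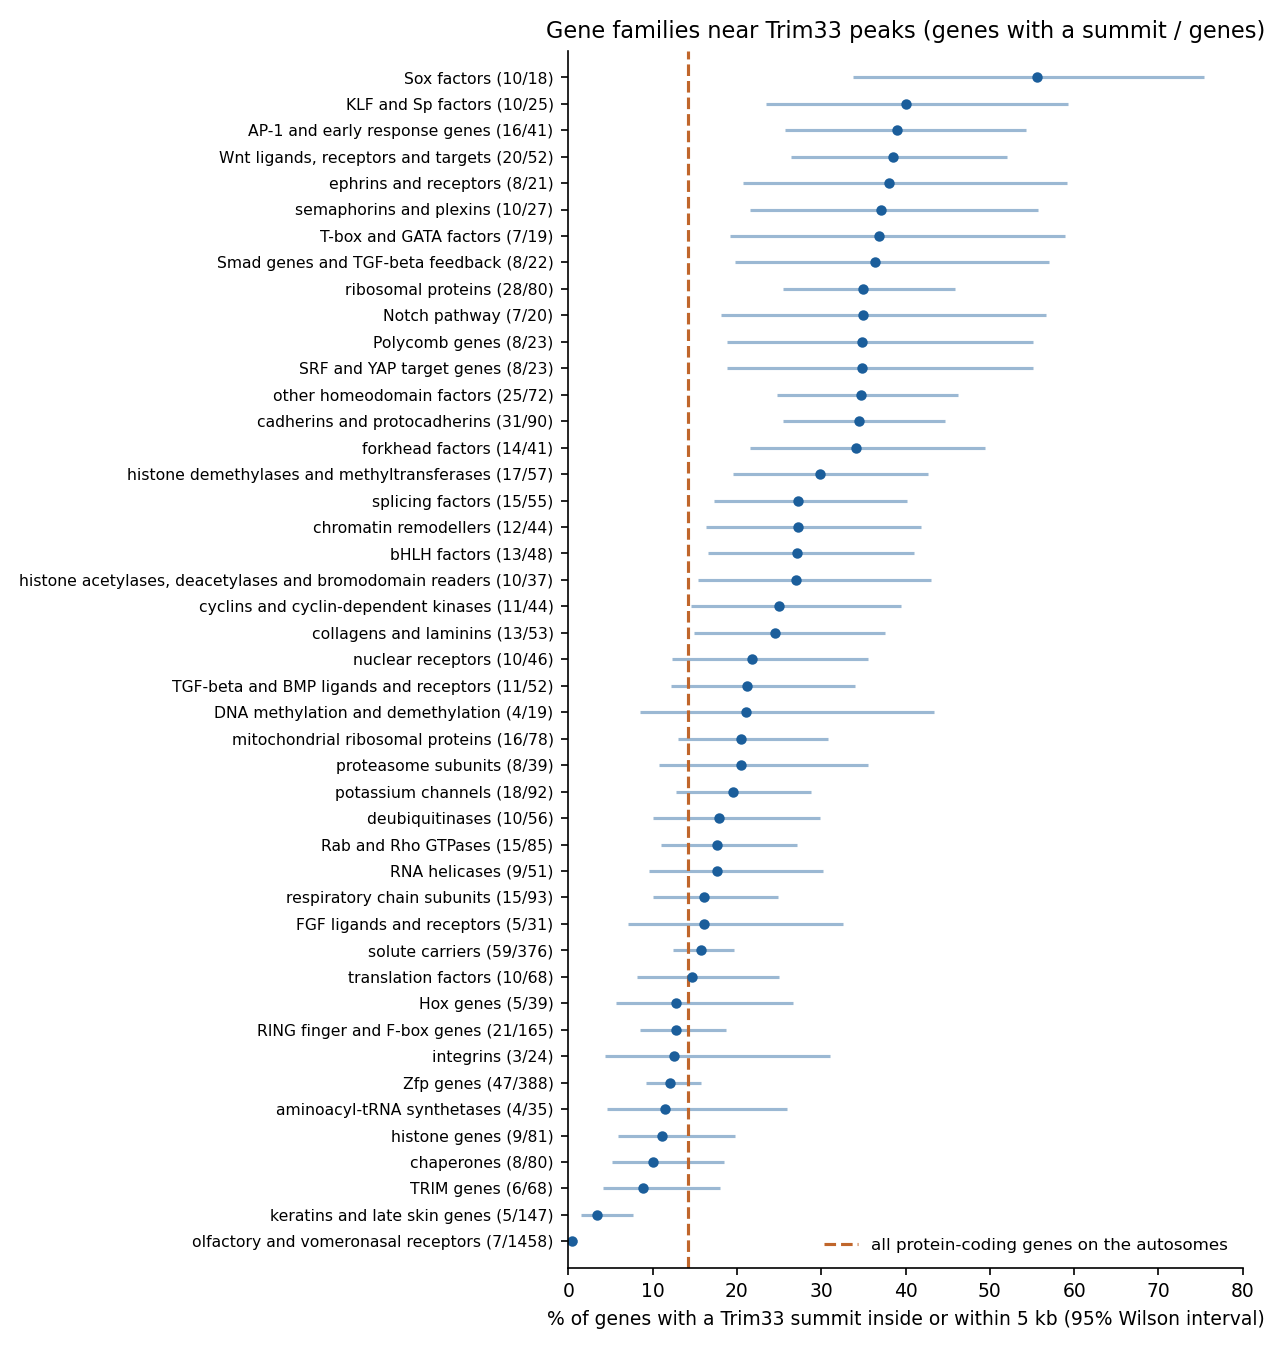
Percentage of the genes of 45 families with a Trim33 summit inside or within 5 kb (x axis, 95% Wilson interval; counts beside each name), with a dashed line at the 14.2% of all protein-coding genes. Sox factors are highest with 55.6%, and olfactory and vomeronasal receptors lowest with 0.480%.

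The 10 genes of the Nodal pathway given here were listed with their values already known. Of these, 5 had a summit inside or within 5 kb, against 14.2% of all protein-coding genes. Within 50 kb 7 had one, against 33.7% of all. The nearest summit lay 11.8 kb from Nodal, the ligand gene, with a fold of 4.63 from 36 fragments over 7 expected, under H3K27ac. Of the inhibitors, Smad7 had a summit at 0.304 kb (6.83), Cer1 at 1.14 kb (4.94) and Lefty2 at 18.9 kb (6.44), a peak that was also the nearest to Lefty1, at 60.8 kb. Of the target genes, Gsc, the goosecoid factor of the organizer, had a summit at 4.06 kb (5.26, 15 fragments over 2.04) with neither CTCF nor H3K27ac, Eomes and Foxa2 had 3 each, and for Mixl1 and T the nearest lay 81.4 kb and 1247 kb away.

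Chromatin and housekeeping families spanned a wide range. Trim33 was at 8 of 23 Polycomb genes (34.8%), with Phc2 (9), Phc1 (7.23) and Eed (6.67), at 17 of 57 histone methyltransferase and demethylase genes (29.8%), with Kmt2a (9) and Setd1a (8.5), at 12 of 44 chromatin remodeller genes (27.3%) and at 4 of 19 genes of DNA methylation, led by Tet3. Ribosomal protein genes, short at a median of 3.21 kb, had it at 28 of 80 (35.0%, 25.5 to 45.9), with Rps24 (8.44), Rpl34 (8.04) and Rpl26 (7.64), and 30 of the peaks at these genes overlapped H3K27ac. Splicing factor genes had it at 15 of 55 (27.3%), mitochondrial ribosomal protein genes at 16 of 78 (20.5%), proteasome genes at 8 of 39 (20.5%), respiratory chain genes at 15 of 93 (16.1%) and translation factor genes at 10 of 68 (14.7%). The upper bound lay below the background in 2 families, keratins and late skin genes (5 of 147, 3.40%, 1.46 to 7.71) and olfactory and vomeronasal receptors (7 of 1458, 0.480%, 0.233 to 0.988). TRIM genes, at 6 of 68 (8.82%, 4.11 to 17.9), had an interval that held 14.2%. Trim33 itself was among the 6 TRIM genes, with a peak of fold 6.83 (16 fragments over 1.49) 0.546 kb from an end of the gene, under H3K27ac with 22.0.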

How the data were processed

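Chromatin immunoprecipitation sequencing was done on 1 library each of Trim33, CTCF, H3K27ac and input. Per the submitters' processing notes, BWA 0.7.12, MACS, MACS2 and SICER 1.1 were used on build mm10 (hg19 is named too). The authors' deposited table gives MACS 2.1.0 with a p-value cut-off of 1e-05 for the Trim33 list and 83 of 4509 peaks removed as blacklisted. In the deposited narrowPeak files each peak has a fold enrichment over input (a ratio), a −log10 p-value and a −log10 q-value. In the deposited chromosome table, values are counts per chromosome. Trim33 was called with as many input tags as its own 13643929, and 40.9% of its unique alignments were duplicates, against 7.09% of those of input.

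From these values the fragments at each summit were recovered with the relations fold = (k + 1)/(λ + 1) and p = P(X > k) for a Poisson mean λ, where k is the number of fragments under the summit and λ the number expected from input. Positions are 1-based. Summits were set against the RefSeq gene table and promoter table (GRCm38.p6); the gene table has no strand, so a gene end is either end. Overlap needed 1 bp. Runs were 3 or more summits with neighbours within 20 kb. Density used the span between the outermost peaks of the 3 lists. Named genes were those nearest the 25 highest peaks, the highest of each autosome and the 10 widest, those at the 10 largest runs, the 20 with most peaks, up to 6 members per family by fold, and those beside the 3 widest empty stretches. Cbfa2t2, P4ha2, Fzd2, Ahdc1, Cdh1, Mast4 and Lmx1b fall outside that rule and were picked with values in view. So were the printed promoters, the Mir290a run, the Nodal list, noncoding biotypes and divergent starts. Members, families and lists were chosen with earlier results of these data known. No test was made, since there was 1 library per antibody. Functions were tested on simulated data with Python 3.11.15, numpy 2.4.6, pandas 2.3.3 and scipy 1.17.1. Alternatives were other thresholds, windows, distances, bins, joining of peaks within 1 kb and other denominators. Some items that the rule names are not reported here.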

Additional observations from a re-analysis of the deposited data

Results flagged for a closer look

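Trim33 signal also appeared outside the autosomes, on chromosomes that none of the comparisons above used. The X chromosome had 17 peaks, or 0.104 per Mb (exact Poisson 95% interval 0.0603 to 0.166), against 1.84 per Mb on the autosomes, with folds of 5.22 to 7.64. Of these, 10 overlapped a CTCF peak and 7 an H3K27ac peak. The Y chromosome had 8 peaks within 0.0698 Mb, with folds of 2.63 to 5.69 on 15 to 41 fragments, where input predicted 2.00 to 15.0. Of the 8, 5 overlapped a CTCF peak and none an H3K27ac peak.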

How the results depend on the processing

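The values rest on 1 library with a median of 16 fragments per peak, so the order of peaks of like fold is not resolved, and counts of close peaks change with thresholds. Of 297 values under alternatives, 227 stayed within their counting interval or within 1.5 times. Of those for the main results, which leave out single families, motifs and genes, 26 stayed and 23 moved beyond. With −log10 q of at least 10 (637 peaks) the median gap was 1533 kb and 2.83% of peaks had another within 10 kb. With −log10 p of at least 7 (3994 peaks) these were 212.5 kb and 18.6%, and the weakest bin had a median width of 282.5 bp. After joining peaks within 1 kb (4186 left) they were 206.6 kb and 12.5%, with 54 runs of 175 peaks. Runs numbered 52 with 179 peaks at 10 kb, 194 with 719 at 50 kb, and 19 with 96 at 4 or more summits. In 5 equal bins by q the highest bin had a median width of 327 bp with 17.0% at starts, and the lowest had 24.2% at starts, so the direction held with a smaller range. Genes with 2 or more peaks numbered 257 in the gene body only, 1024 within 20 kb and 771 when each peak went to its nearest gene. Families above 2 times the background numbered 9 among acetylated genes. Within 1 kb of a gene end T-box and GATA factors (5.26%) and cadherins and protocadherins (5.56%) fell below the 7.01% of all genes. With −log10 q of at least 10 cadherins and protocadherins were also below all genes (1.11% against 2.09%). Motifs at 1.5 times all promoters or more numbered 5, and 1, the palindrome CTCGCGAG, among CpG-rich windows. The 5 included the Smad palindrome, which rested on 4 windows with an interval (0.151 to 0.991) that held the 0.239% of all windows. Chromosome 11 had the highest density under all 5 settings and chromosome 16 the lowest in all but the span between outermost genes, where it was chromosome 14. Of 248 values for single families, motifs and genes, 15 moved up and 32 down beyond their interval or 1.5 times. The alternatives with deposited chromosome lengths, acetylated genes, CpG-rich windows, genes of every biotype, or without Gse1 or the 2 largest runs were chosen after seeing the data. The cause of these shifts was not tested, beyond the fewer peaks a stricter threshold keeps. No paired analysis was possible because each group has 1 library.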
